A study of Homo sapiens with 6 samples.

Results

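Messenger RNA levels of the mitochondrial ribosome and of the factors that work with it were compared in HepG2-hCAR cells given vehicle or doxycycline. The 88 genes were taken by a rule on names, set with earlier results of these data known. The rule took every gene with an MRPL or MRPS symbol followed by a number (78 genes). It also took the translation factors GFM1, GFM2, TUFM, TSFM, MTIF2, MTIF3, MTRF1L and C12orf65, and LRPPRC and TFAM. They were 88 of the 11456 protein-coding gene symbols in the table. HepG2-hCAR is a single-cell clone of HepG2, a liver cancer line, selected with puromycin after lentiviral transfer of a human CAR cDNA in the doxycycline-inducible vector pCW57-GFP-2A-MCS. CAR is the constitutive androstane receptor, a nuclear receptor of hepatocytes encoded by NR1I3. Both groups carry the construct: vehicle was given for 3 libraries and doxycycline at 1 µg/ml for the other 3, and all were taken at 72 h. Doxycycline was never given without the receptor construct, so effects of the drug and of the receptor cannot be told apart. Nothing in the labels tells whether the libraries are separate cultures, so p-values measure the spread between these libraries, which may be technical.

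The deposited level is FPKM, the fragments of a gene divided by transcript length and library size, a relative unit that is comparable between genes. The sequencing depth of the libraries is unknown. The FPKM values of a library summed to 204318 to 209372, and 11441 to 11453 of the 11461 entries were above 0. NR1I3 itself was at 3.01 to 3.56 FPKM with vehicle and at 316 to 331 FPKM with doxycycline, which matched the labels. Of 10 hepatocyte markers all were in the table, with a summed level of 1427 to 1568 FPKM with vehicle and 709 to 734 FPKM with doxycycline. The other marker lists were present in part: 3 of 4 cholangiocyte markers (239 to 248 and 264 to 267 FPKM), 2 of 5 macrophage and blood markers (8.42 to 8.80 and 6.28 to 7.49 FPKM) and 2 of 5 stellate and fibroblast markers (19.1 to 20.2 and 16.9 to 18.3 FPKM). The sums hide opposite directions within 2 of these lists. Of the 3 cholangiocyte markers 1 was higher with doxycycline and 2 were lower (median log2 fold change -0.20). Of the 2 stellate and fibroblast markers 1 was higher and 1 lower. None of 4 endothelial markers was listed. All libraries come from the same clonal line, so the marker lists need not stand for separate cell types. The part of these shifts in the results below was not tested. In bulk samples fewer cells expressing a marker and less of its RNA per cell cannot be told apart.

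Mitochondria keep their own ribosome, which translates the few mRNAs of mitochondrial DNA into core subunits of the respiratory chain and the ATP synthase. Its rRNAs are made inside the organelle, while its proteins and factors are encoded in the nucleus, made in the cytosol and imported. Many ribosomal proteins descend from those of bacteria and others are found only in mitochondria, and doxycycline, a tetracycline antibiotic aimed at the bacterial ribosome, is known to inhibit mitochondrial protein synthesis as well.

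Few genes of the nuclear-encoded mitochondrial ribosome were called as changed, and most of these differed by small amounts. Genes that were not called may still have changed by small amounts. All 88 members passed the minimum mean level of 1 FPKM, and limma on log2(FPKM + 1) called 15 of them (17.0%) at an adjusted p below 0.05, against 28.8% of the 10469 genes tested. Of the 15, 3 rose (3.41%) and 12 fell (13.6%), beside 15.2% and 13.6% of all genes. The share of members that fell was therefore that of the table, and the share that rose was below it. Leaving out single libraries gave 3 to 5 that rose (5 without vehicle 1) and 6 to 9 that fell (6 without vehicle 1, vehicle 3 or doxycycline 1, and 7 without vehicle 2). At an unadjusted p below 0.05 there were 26 of 88 members, against 4275 of the 10469 genes tested. That is the background for every unadjusted count given below. The levels of the 3 vehicle and the 3 doxycycline libraries did not overlap for 30 of 88 members (34.1%), against 47.1% of all genes.

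Most differences were small. The log2 fold changes, doxycycline minus vehicle, ran from -0.87 (MRPL10, not called) to 0.46 (MRPL32), with a median of -0.05 beside 0.01 for all genes. They were negative for 57 of 88 members (64.8%) and for 48.2% of all genes. A change of at least 1.5-fold with a call was found in 1 member, MRPL23 (1.14%), against 8.64% of all genes. The 95% interval of the log2 fold change lay within 0.5 of 0 on both sides for 76 of 88 members (86.4%), against 74.2% of all genes. The median standard error of the members, 0.0545, was below that of all genes, 0.0623, and their median level of 15.7 FPKM was above the 6.96 FPKM of all genes. Among genes with a mean of at least 5 FPKM, 34.1% of all genes were called.

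**Figure D1:**
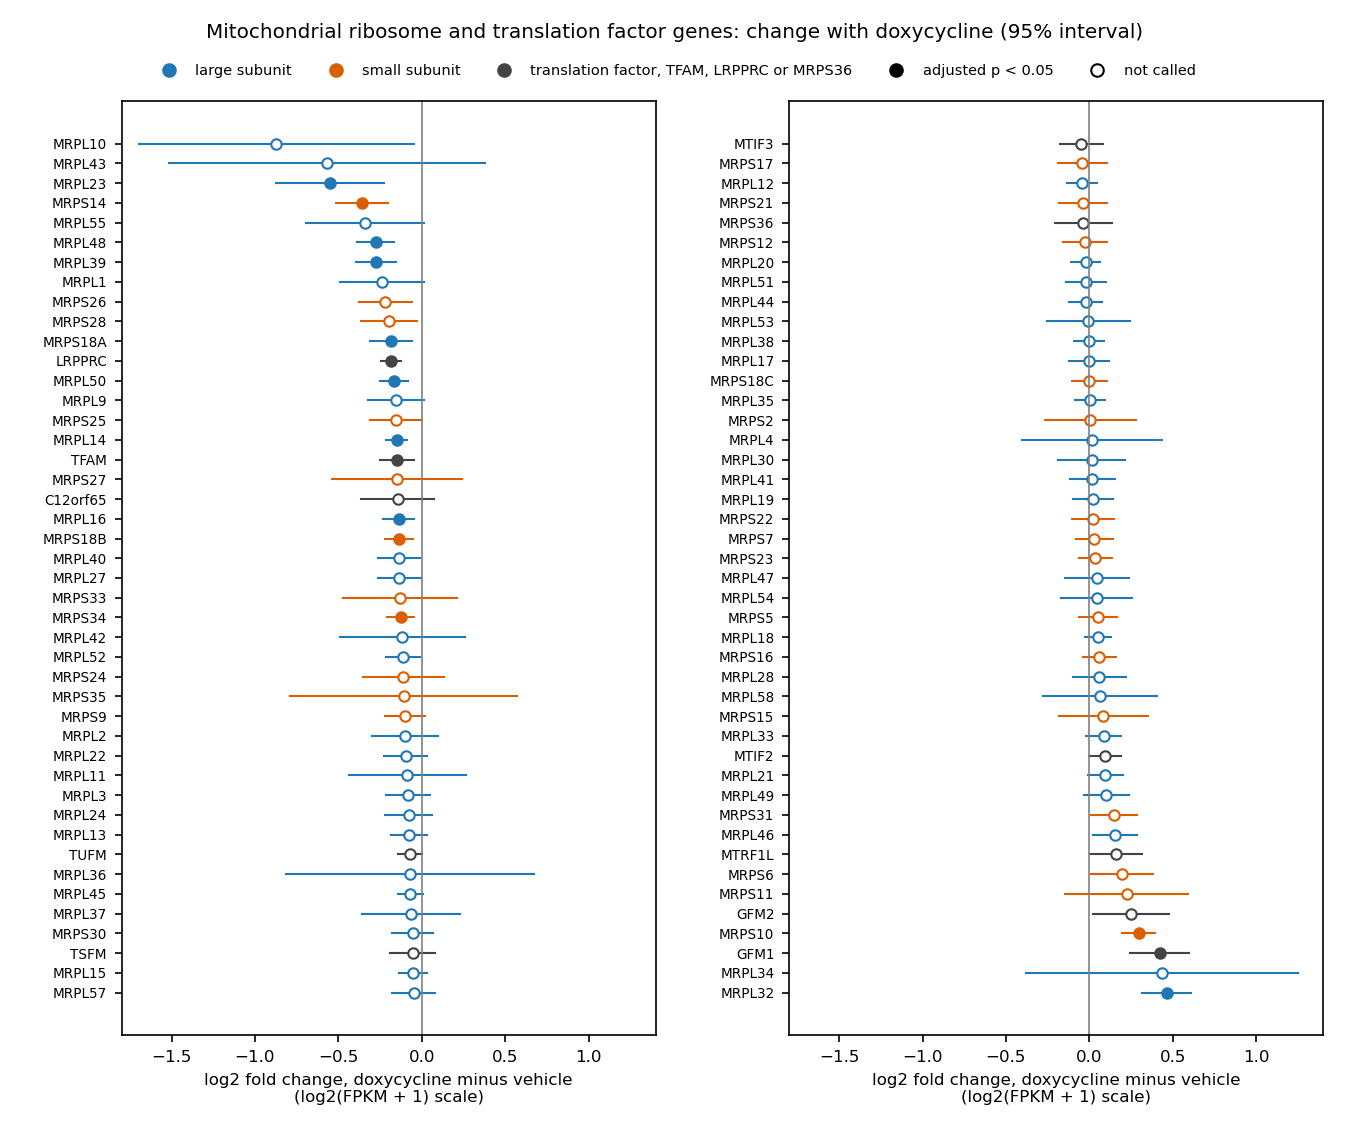
Log2 fold change of each of the 88 genes (x axis, doxycycline minus vehicle, on the log2(FPKM + 1) scale) with its 95% interval, in order of the change, lowest in the left panel and highest in the right. Blue marks the large subunit, orange the small subunit and dark grey the other genes, and filled points are the 15 called genes. Most intervals lie within 0.5 of 0, and the widest belong to genes that were not called, such as MRPL10 and MRPL43.

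Summed over the 88 genes, the level was 2118, 2084 and 2064 FPKM in the vehicle libraries and 1971, 1992 and 2064 FPKM in the doxycycline libraries. The third library of each group stood at the same level to within 1 FPKM, so the groups met. The means were 2089 ± 27.5 and 2009 ± 49.1 FPKM (SD, n = 3 each, as for the values that follow), a ratio of 0.962. The 51 large subunit proteins summed to 1195 ± 18.3 FPKM with vehicle and 1148 ± 30.5 FPKM with doxycycline, and 1 rose and 7 fell. The 26 small subunit proteins summed to 568.8 ± 16.5 and 546.1 ± 20.3 FPKM, and 1 rose and 3 fell. The 8 translation factors summed to 217.1 ± 4.34 and 218.3 ± 3.48 FPKM, and 1 rose. Both LRPPRC and TFAM fell. MRPS36, whose product despite its name is known as a part of the α-ketoglutarate dehydrogenase complex, was at 14.2 ± 0.566 and 13.8 ± 1.26 FPKM (adjusted p = 0.732, limma).

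The ribosomal proteins were also counted by origin, and the difference between the classes was not tested. Of the 46 with a bacterial homologue, 2 rose and 4 fell (13.04% called), 27 (58.7%) had a negative log2 fold change, and the median was -0.03. Of the 31 classed as found only in mitochondria, 6 fell (19.4% called), 23 (74.2%) had a negative value and the median was -0.07. Among the 31 were MRPS18A and MRPS18B, which fell, while their paralogue MRPS18C was counted with the 46. The order of the classes by share called depends on where MRPS18A and MRPS18B are placed. Both shares of called genes were below the 28.8% of all genes, of which 48.2% had a negative value. With limma none of the 31 rose, and 11 of them had an unadjusted p below 0.05 in either direction, against 4275 of 10469 genes.

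The genes that rose were MRPL32, GFM1 and MRPS10. MRPL32 (ENSG00000106591, GRCh37 chr7:42971799-42988557, plus strand) encodes a large subunit protein whose precursor is cut by a mitochondrial inner membrane protease before it joins the ribosome. Its level was 8.31, 8.29 and 9.06 FPKM in the vehicle libraries and 12.2, 11.4 and 12.96 FPKM in the doxycycline libraries. All 3 doxycycline libraries stood above all 3 vehicle libraries, with a gap between the groups. The means were 8.55 ± 0.439 and 12.2 ± 0.795 FPKM, a 1.42-fold difference (log2 fold change 0.46, SE 0.06, adjusted p = 0.00268, limma).

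GFM1 (ENSG00000168827, chr3:158362067-158410364, plus strand) encodes elongation factor G1, the GTPase that moves the tRNAs and the mRNA through the mitochondrial ribosome after each peptide bond. It was at 6.93, 8.37 and 8.25 FPKM with vehicle and at 11.0, 10.5 and 10.9 FPKM with doxycycline. The doxycycline libraries lay close together and above every vehicle library, of which the first was lowest. The difference was 1.38-fold (log2 fold change 0.42, SE 0.07, adjusted p = 0.00764, limma).

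MRPS10 (ENSG00000048544, chr6:42174539-42185603, minus strand), a small subunit protein with a bacterial homologue, was at 22.9, 23.7 and 23.05 FPKM with vehicle and at 29.5, 27.3 and 29.4 FPKM with doxycycline. The groups did not overlap. Its level was 1.24-fold higher with doxycycline (log2 fold change 0.30, SE 0.04, adjusted p = 0.00324, limma). All 3 genes kept the call in each of the 16 alternative fits, with adjusted p-values of at most 0.0132 for MRPL32, 0.0312 for GFM1 and 0.0227 for MRPS10.

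Of the 12 genes that fell, MRPL23 fell the most. It encodes a large subunit protein whose bacterial counterpart lies at the exit of the peptide tunnel (chr11:1968508-2005752, plus strand). It was at 17.8, 14.4 and 18.6 FPKM with vehicle and at 10.7, 13.2 and 9.79 FPKM with doxycycline. The second library of each group lay nearest to the other group, but the groups did not overlap. The level was 1.51-fold lower with doxycycline (log2 fold change -0.55, SE 0.13, adjusted p = 0.0259, limma). The call was lost in 5 alternatives, with the replicate block and without vehicle 1, vehicle 3, doxycycline 1 or doxycycline 3, and the adjusted p ran from 0.0163 to 0.087.

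MRPS14 (chr1:174979925-174992561, minus strand), a small subunit protein with a bacterial homologue, was at 10.8, 11.4 and 12.2 FPKM with vehicle and at 8.62, 9.37 and 8.25 FPKM with doxycycline. It fell in every library relative to every vehicle library, 1.31-fold in the means (log2 fold change -0.36, adjusted p = 0.00854, limma). MRPL48 and MRPL39 encode large subunit proteins found only in mitochondria. MRPL48 (chr11:73498361-73576178, plus strand) was among the weakest members, at 3.74, 3.72 and 3.72 FPKM with vehicle and 2.98, 2.77 and 2.95 FPKM with doxycycline (log2 fold change -0.28, adjusted p = 0.00634, limma). Its 3 vehicle libraries were nearly equal, and all doxycycline libraries were below them. MRPL39 (chr21:26957968-26979829, minus strand) was at 26.1, 26.1 and 24.5 FPKM with vehicle and at 19.9, 22.2 and 20.9 FPKM with doxycycline (log2 fold change -0.27, adjusted p = 0.00923, limma). The groups were again apart.

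LRPPRC, an RNA-binding protein that with its partner SLIRP stabilises the mRNAs of mitochondrial DNA, fell in a tight pattern (chr2:44113647-44223144, minus strand). Its level was 61.5, 63.1 and 61.4 FPKM with vehicle and 53.7, 54.7 and 54.9 FPKM with doxycycline. Each group spanned less than the gap between the groups (log2 fold change -0.18, SE 0.03, adjusted p = 0.00338, limma). TFAM, which packages mitochondrial DNA and starts its transcription (chr10:60144782-60158981, plus strand), was at 30.8, 32.4 and 30.6 FPKM with vehicle and at 26.9, 29.2 and 28.3 FPKM with doxycycline. The groups did not overlap, but the call was near the threshold (log2 fold change -0.15, adjusted p = 0.0454, limma). It was lost in 6 alternatives, without the variance trend and without any 1 of vehicle 1, vehicle 2, vehicle 3, doxycycline 1 and doxycycline 3, with adjusted p-values from 0.0331 to 0.121.

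MRPL14, a large subunit protein with a bacterial homologue (chr6:44081191-44095194, minus strand), was at 49.6, 48.8 and 50.1 FPKM with vehicle and at 44.9, 43.8 and 44.9 FPKM with doxycycline (log2 fold change -0.15, adjusted p = 0.00796, limma). The spread within each group was small and the groups were well apart. MRPL50, a large subunit protein found only in mitochondria (chr9:104149915-104160896, minus strand), was at 27.8, 28.5 and 28.8 FPKM with vehicle and 24.4, 25.9 and 25.2 FPKM with doxycycline (log2 fold change -0.17, adjusted p = 0.0156, limma). Its call was lost without vehicle 2 and without vehicle 3, with an adjusted p of up to 0.0532. MRPL16, a large subunit protein with a bacterial homologue (chr11:59573608-59578345, minus strand), was at 18.0, 18.9 and 18.0 FPKM with vehicle and at 16.9, 16.0 and 16.6 FPKM with doxycycline (log2 fold change -0.14, adjusted p = 0.0407, limma). It lost its call in 8 alternatives, without the variance trend, with the replicate block and without any 1 of the 6 libraries, with adjusted p-values from 0.0326 to 0.111. MRPS34, a small subunit protein found only in mitochondria and chosen here after its values were seen, fell and stood at 48.5 ± 1.28 FPKM with vehicle and 44.3 ± 1.03 FPKM with doxycycline (log2 fold change -0.13, adjusted p = 0.0313, limma). Its call was lost in 7 alternatives, without the variance trend, with the replicate block and without any 1 library other than doxycycline 3, with adjusted p-values from 0.0206 to 0.0872.

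**Figure D2:**
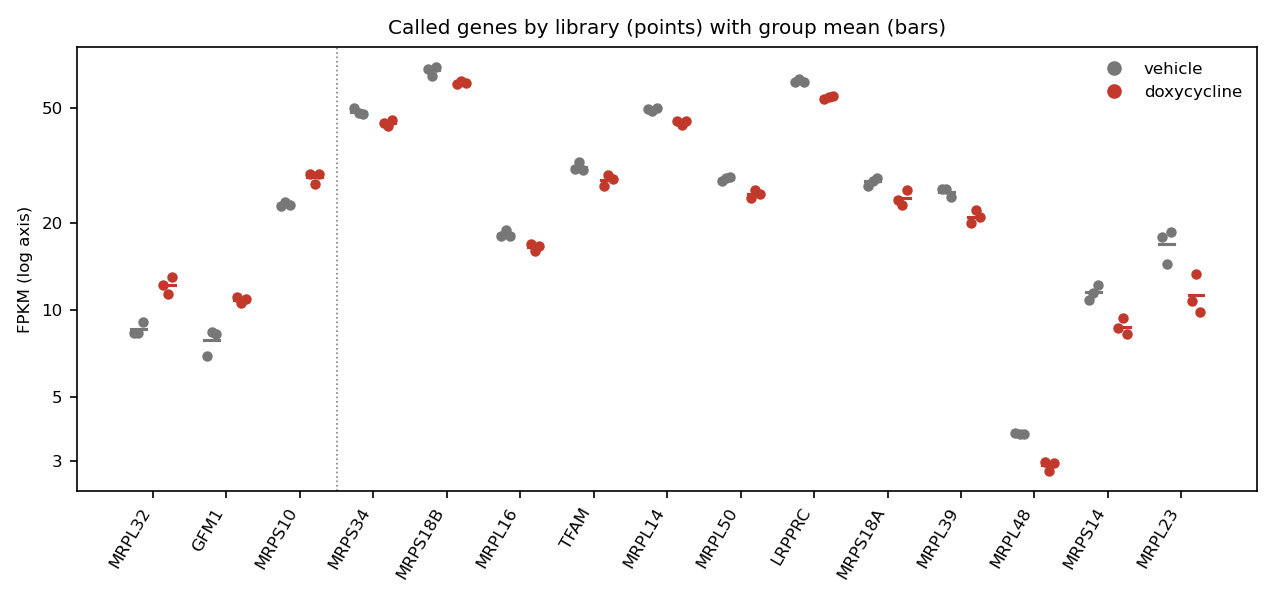
FPKM (log axis) of the 15 called genes in each of the 3 vehicle libraries (grey) and 3 doxycycline libraries (red), with bars at the group means. The 3 genes left of the dotted line are higher with doxycycline and the 12 to its right are lower, and for none of the 15 do the points of the groups overlap.

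The 3 paralogues named MRPS18 sit at different places in the ribosome, MRPS18A in the large subunit and MRPS18B and MRPS18C in the small one. MRPS18A (chr6:43639040-43655528, minus strand) was at 26.9, 27.9 and 28.6 FPKM with vehicle and at 24.0, 23.0 and 26.0 FPKM with doxycycline (log2 fold change -0.19, adjusted p = 0.0431, limma). MRPS18B (chr6:30585486-30594172, plus strand), at the highest level of the 3, was at 68.3, 64.5 and 69.1 FPKM with vehicle and at 60.5, 61.9 and 60.9 FPKM with doxycycline (log2 fold change -0.14, adjusted p = 0.0272, limma). Both fell without overlap between the groups. Both calls were lost without the variance trend. That of MRPS18A was also lost without any 1 library other than doxycycline 3, and that of MRPS18B with the replicate block and without any 1 library other than vehicle 2. Over the alternatives the adjusted p was 0.0197 to 0.12 for MRPS18A and 0.00916 to 0.0812 for MRPS18B. MRPS18C was at 6.01 ± 0.068 FPKM with vehicle and 6.01 ± 0.222 FPKM with doxycycline (adjusted p = 0.994, limma). MRPS30, another large subunit protein despite its name, was at 9.54 ± 0.436 and 9.14 ± 0.372 FPKM (adjusted p = 0.453, limma).

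Among the other translation factors none was called by limma, and 2 of the 7 had an unadjusted p below 0.05. For initiation, MTIF2, which brings the initiator tRNA to the small subunit, was at 40.1 ± 1.35 and 42.8 ± 1.46 FPKM (log2 fold change 0.09, adjusted p = 0.131, limma). MTIF3, which helps to keep the subunits apart before initiation, was at 9.01 ± 0.342 and 8.68 ± 0.485 FPKM (adjusted p = 0.545, limma). For elongation, TUFM, the factor that delivers aminoacyl-tRNAs, was at 129 ± 3.65 and 123 ± 2.31 FPKM (log2 fold change -0.07, adjusted p = 0.129, limma). TSFM, its nucleotide exchange factor, was at 11.0 ± 0.737 and 10.5 ± 0.281 FPKM (adjusted p = 0.512, limma). So of the 3 elongation factors GFM1 passed the test and the factors of aminoacyl-tRNA delivery did not.

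For termination and recycling, MTRF1L, a release factor, was at 10.0 ± 0.858 and 11.3 ± 0.248 FPKM (log2 fold change 0.16, adjusted p = 0.120, limma). C12orf65, known for the rescue of stalled mitochondrial ribosomes, had the lowest level of the members at 1.70 ± 0.228 and 1.44 ± 0.187 FPKM (adjusted p = 0.276, limma). GFM2, a relative of GFM1 that splits the ribosome for reuse, was at 8.34, 6.97 and 8.91 FPKM with vehicle and at 9.18, 9.63 and 10.5 FPKM with doxycycline. Its groups did not overlap, but the third vehicle library was close to the first doxycycline library, and the gene was not called (log2 fold change 0.25, 95% interval 0.02 to 0.48, adjusted p = 0.0957, limma).

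The members differed far more from each other than between the groups. TUFM (126 FPKM over the 6 libraries), MRPL12 (108), MRPL18 (71.2), MRPS18B (64.2) and LRPPRC (58.2) were highest, and C12orf65 (1.57), MRPL48 (3.31) and MRPL42 (3.97) lowest. MRPL12, a protein of the stalk that recruits translation factors, was at 110 ± 3.04 and 107 ± 3.94 FPKM (adjusted p = 0.444, limma). MRPL18, a large subunit protein with a bacterial homologue, was at 69.9 ± 1.74 and 72.6 ± 1.79 FPKM (adjusted p = 0.258, limma). MRPL42 was at 4.17 ± 0.772 and 3.77 ± 0.708 FPKM (adjusted p = 0.616, limma). Across the 88 genes the log2 fold change had a Spearman's rho of -0.062 with the level, as a description over genes that share their libraries.

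In a few members 1 or 2 libraries stood apart from their group. The highest library was at least 2 times the lowest within a group for 4 of 88 members (4.55%), against 5.39% of all genes, and MRPL10, MRPL34, MRPL43, MRPL36 and MRPS35 were chosen after their values were seen. MRPL10, which anchors the stalk protein MRPL12, was at 28.4, 27.4 and 11.2 FPKM with vehicle and at 10.9, 10.6 and 11.2 FPKM with doxycycline. The third vehicle library was at the level of the doxycycline libraries, and MRPL10 was not called (log2 fold change -0.87, SE 0.34, adjusted p = 0.107, limma). Without vehicle 3 its adjusted p was 0.000226 (limma), the only alternative with a call. That fit leaves out the 1 vehicle library at the doxycycline level, so its p-value gives no support for a change. In MRPL34 the third doxycycline library was alone at 24.8 FPKM, with the other 5 libraries at 9.28 to 11.1 FPKM (adjusted p = 0.378, limma).

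In MRPL43 the second doxycycline library was lowest at 4.30 FPKM, the other doxycycline libraries were at 13.9 and 10.1 FPKM, and the vehicle libraries at 17.1, 11.6 and 11.6 FPKM (adjusted p = 0.322, limma). MRPL36 was at 19.9, 13.5 and 10.9 FPKM with vehicle and at 19.9, 9.53 and 13.1 FPKM with doxycycline (adjusted p = 0.887, limma). In MRPS35 a library of each group was low: 60.3, 62.2 and 39.1 FPKM with vehicle and 33.3, 58.4 and 59.8 FPKM with doxycycline (adjusted p = 0.804, limma). The library that stood apart was not the same in these 5 genes. The direction turned in MRPL36 and MRPS35 when single libraries were left out.

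**Figure D3:**
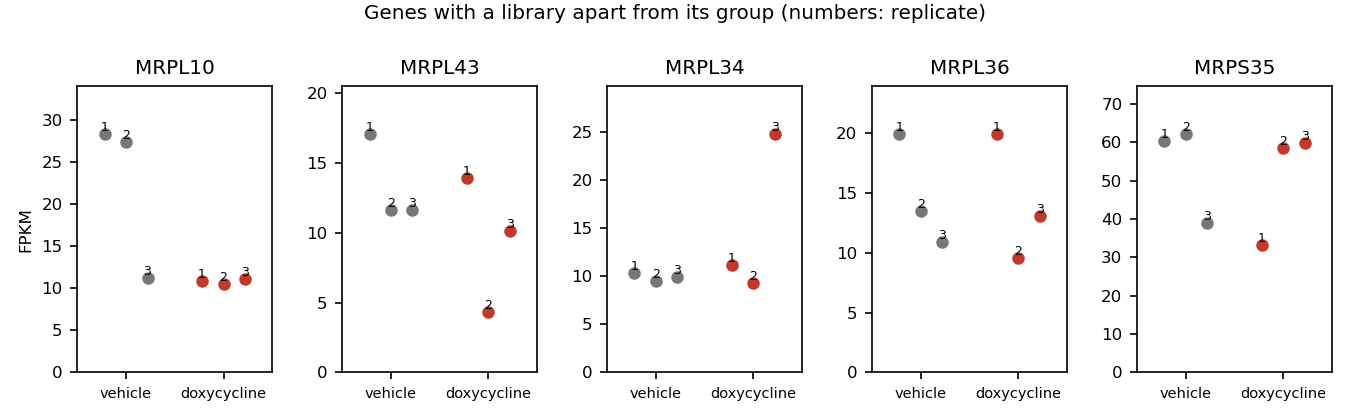
FPKM of 5 genes in each library (vehicle grey, doxycycline red, the number above a point is the replicate). In MRPL10 vehicle 3 lies with the doxycycline libraries, in MRPL43 doxycycline 2 and in MRPL34 doxycycline 3 lie away from the rest, and in MRPL36 and MRPS35 the libraries of both groups spread over the same range.

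MRPS11 and MRPL46 are transcribed away from each other on chromosome 15, with 34 bases between their 5′ ends. MRPL46 was at 8.41, 7.77 and 7.36 FPKM with vehicle and at 8.63, 8.92 and 8.91 FPKM with doxycycline (adjusted p = 0.0857, limma). MRPS11 was at 4.84, 2.94 and 3.13 FPKM with vehicle and at 4.36, 4.24 and 4.38 FPKM with doxycycline (adjusted p = 0.320, limma). In both genes vehicle 1 was the highest vehicle library, and without it the adjusted p was 0.0407 for MRPL46 and 0.0076 for MRPS11, with doxycycline higher. Each gene gained a call in this 1 alternative only. Leaving out the highest vehicle library widens such a difference by its choice, so these p-values give no support for a rise. Both genes were chosen after their values were seen.

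Such head-to-head pairs, with 5′ ends at most 1000 bases apart on opposite strands, included 24 of the 88 genes, in 23 pairs. In 6 pairs (26.1%) 1 gene was called, and in 17 (73.9%) neither was, near the 30.5% and 64.2% of the 835 pairs of the whole table. In none of the 23 were both called by limma, against 3.23% of all pairs with both called in the same direction and 2.04% with both called in opposite directions. MRPL32 and PSMA2, a proteasome subunit chosen after its values were seen, start 23 bases apart. While MRPL32 rose, PSMA2 was at 19.1, 18.3 and 18.1 FPKM with vehicle and at 16.7, 17.5 and 18.7 FPKM with doxycycline, with overlapping groups (log2 fold change -0.07, adjusted p = 0.342, limma).

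The promoters of the members were searched for 4 short motifs, which the choice of genes did not use. RefSeq promoters of GRCh38.p14, 250 bases before to 50 after the start, were matched for 78 of the 88 genes and for 8263 of all genes tested. The others were MRPL2, MRPL10, MRPL13, MRPL15, MRPL21, MRPL23, MRPL35, MRPS28, MRPS36 and C12orf65. The motifs searched on both strands were AAGATGGC for YY1, CCGGAAGT for ETS factors such as GABPA, CACGTG for E-box proteins and the 10-base palindrome of NRF1. The YY1 motif was in 20 of 78 member promoters (25.6%), against 6.12% of all promoters, 23.5% of 17 mitochondrial aminoacyl-tRNA synthetases and 10.9% of 64 cytosolic ribosomal proteins. The ETS motif was in 15 (19.2%), against 10.0% of all promoters, 17.6% of the synthetases and 15.6% of the cytosolic ribosomal proteins. The NRF1 motif was in 1 (1.28%, against 2.49%) and the E-box in 6 (7.69%, against 10.7%). Of the 78 promoters 44 held none of the 4 motifs, and no ETS match overlapped a YY1 match in the members. A match is a description of these letters and not a binding site.

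Among the called genes with a matched promoter, the YY1 motif was in 2 of 3 that rose and 3 of 11 that fell, and the ETS motif in 1 of 3 and 2 of 11. The motifs thus occurred among genes of both directions. Their sites are shown with 11 bases on each side, from GRCh38.p14, 5′ to 3′ on the strand of the gene, with the motif or its reverse complement in capitals. The YY1 sites of the called genes are MRPL32 at chr7:42932143-42932172 (plus strand), MRPS10 at chr6:42217834-42217863 (minus), MRPS18A at chr6:43687764-43687793 (minus), MRPS18B at chr6:30617852-30617881 (plus) and MRPL50 at chr9:101398577-101398606 (minus). The ETS sites are GFM1 at chr3:158644508-158644537 (plus), MRPL16 at chr11:59810767-59810796 (minus) and MRPS34 at chr16:1773136-1773165 (minus).
MRPL32 (YY1): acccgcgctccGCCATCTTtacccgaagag
MRPS10 (YY1): tcgggaccggcAAGATGGCggcgcggacag
MRPS18A (YY1): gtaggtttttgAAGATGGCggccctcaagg
MRPS18B (YY1): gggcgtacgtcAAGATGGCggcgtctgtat
MRPL50 (YY1): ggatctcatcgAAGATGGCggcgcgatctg
GFM1 (ETS): cgtcctttgccCCGGAAGTgctcttacaac
MRPL16 (ETS): gagtgaacacaACTTCCGGccccactgagc
MRPS34 (ETS): ctcttccggtgACTTCCGGccggaccgctg
In MRPS10, MRPS18A, MRPS18B and MRPL50 the ATG inside the capitals is the annotated start codon, so the same letters also encode the first residues of the protein. Of 17 forward YY1 matches in the members, 12 (70.6%) held the annotated start codon, against 221 of 398 (55.5%) in all genes.

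The other genes that serve mitochondrial translation were counted from lists by role. Of 5 ribosomal proteins outside the MRP naming rule that were tested (DAP3, PTCD3, CHCHD1, AURKAIP1 and GADD45GIP1), limma called none, and 2 had an unadjusted p below 0.05. Of 28 genes listed under ribosome assembly and rRNA modification 1 rose and 3 fell (14.3% called, against 28.8% of all genes), with a median log2 fold change of -0.00. The 3 that fell were MRM3, LYRM7 and NDUFAB1. The products of LYRM7 and NDUFAB1 are known for roles in respiratory complexes, so the list is wider than its name. The call of LYRM7 was lost in 6 alternatives and that of NDUFAB1 in 5. TRUB2, a pseudouridine synthase, rose from 6.58 ± 0.283 to 7.62 ± 0.112 FPKM, and MRM3, a 2'-O-methyltransferase of the large rRNA, fell from 10.1 ± 0.128 to 9.03 ± 0.289 FPKM. Both calls were lost with the replicate block, that of MRM3 also without any 1 library and that of TRUB2 without any 1 other than vehicle 3. Of 13 other translation factors and tRNA-modifying enzymes limma called none, with 2 at an unadjusted p below 0.05 and a median of 0.04.

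Of 20 mitochondrial aminoacyl-tRNA synthetases and amidotransferase subunits, which charge the tRNAs of the organelle, 5 fell (25%) and none rose by limma. Among all genes 13.6% fell and 15.2% rose. At an unadjusted p below 0.05 there were 6 of the 20, and the median was -0.09. RARS2, the arginyl-tRNA synthetase, was at 28.5, 27.1 and 27.3 FPKM with vehicle and at 20.8, 20.9 and 20.8 FPKM with doxycycline (log2 fold change -0.39, adjusted p = 0.000378, limma). Its doxycycline libraries were nearly equal and far from the vehicle libraries. NARS2, the asparaginyl-tRNA synthetase, was at 10.2 ± 1.09 and 7.49 ± 0.272 FPKM and fell (adjusted p = 0.0131, limma). VARS2 and IARS2, the latter chosen after its values were seen, fell by 0.19 and 0.18 on the log2 scale. The call of VARS2 was lost with the replicate block and without vehicle 1, vehicle 2, doxycycline 1 or doxycycline 2.

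Of 25 genes of mitochondrial DNA expression and RNA handling, 4 rose and 1 fell (20% called, against 28.8% of all genes), with a median of 0.02. FASTKD5, an RNA-binding protein required for processing of mitochondrial transcripts, was at 23.2, 23.5 and 23.1 FPKM with vehicle and at 26.9, 27.0 and 25.9 FPKM with doxycycline (log2 fold change 0.18, adjusted p = 0.00611, limma). REXO2, an oligoribonuclease, rose from 9.59 ± 0.501 to 11.4 ± 0.449 FPKM, a call that was lost without vehicle 1, vehicle 3 or doxycycline 2. SLIRP, the partner of LRPPRC, fell as well, with 19.7 ± 0.847 FPKM under vehicle and 15.9 ± 1.84 FPKM under doxycycline (log2 fold change -0.30, adjusted p = 0.0469, limma), but lost its call in 6 alternatives, without the variance trend and without any 1 library other than doxycycline 2.

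**Figure D4:**
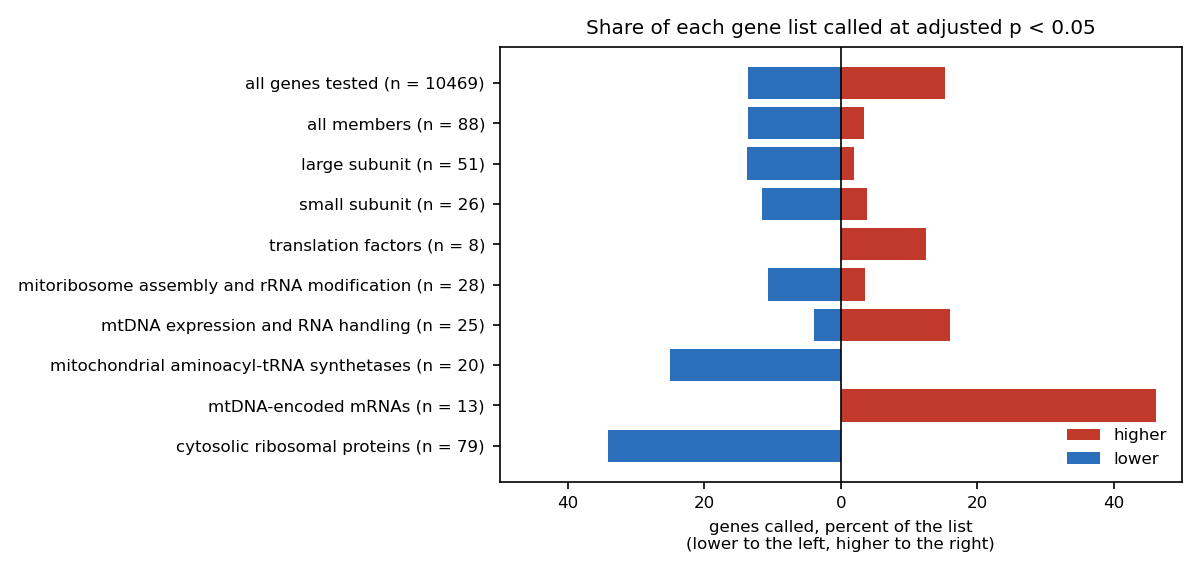
Share of each gene list called at an adjusted p below 0.05 (x axis, percent of the list, lower with doxycycline to the left in blue and higher to the right in red), with the number of genes tested. The 88 members have the share of lower genes of the whole table (13.6%) and fewer higher genes, the synthetases and the cytosolic ribosomal proteins have called genes to the left and the mRNAs of mitochondrial DNA to the right. With quantile normalization 3 cytosolic genes were called higher and 2 mRNAs of mitochondrial DNA lower.

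The mRNAs that this ribosome translates were counted in the same way, and the difference between them and the genes of its nuclear-encoded proteins was not tested. Of the 13 protein-coding genes of mitochondrial DNA, counted here as an mRNA each, 6 rose (46.2%) and none fell by limma. Among all genes 15.2% rose and 13.6% fell. At an unadjusted p below 0.05 there were 8 of the 13, and with quantile normalization 5 were called higher and 2 lower. MT-ATP8 and MT-ATP6 overlap in position, as do MT-ND4L and MT-ND4, so the levels within each pair may not be independent. On the deposited scale all 13 had a positive log2 fold change, with a median of 0.18. With quantile normalization 6 were positive and 4 negative, with a median of 0.00. Quantile normalization sets values by their rank in a library, and these genes are near the top (median 2532 FPKM, 6.96 FPKM for all genes). It therefore removes a shift shared by the highest genes and cannot check for one. MT-CYB, which encodes cytochrome b, was at 1526, 1388 and 1360 FPKM with vehicle and at 2035, 1945 and 1913 FPKM with doxycycline (1.38-fold, log2 fold change 0.46, adjusted p = 0.0012, limma). MT-ATP8 and MT-ATP6, which encode ATP synthase subunits, were 1.28-fold and 1.24-fold higher, MT-ND3, a complex I subunit, 1.16-fold, and MT-CO2 and MT-CO3, cytochrome c oxidase subunits chosen after their values were seen, 1.16-fold and 1.15-fold. The groups did not overlap for these 6 of the 13 (46.2%), near the 47.1% of all genes. Together the 13 mRNAs made up 16.6 to 17.4% of the summed FPKM with vehicle and 18.2 to 19.5% with doxycycline, while the 88 members made up 1.01 to 1.02% and 0.948 to 1.00%. MT-CYB and MT-ATP8 kept their calls with quantile normalization, and MT-ATP6, MT-ND3, MT-CO2 and MT-CO3 did not. MT-ND3 and MT-CO2 also lost theirs without vehicle 2, vehicle 3, doxycycline 1 or doxycycline 2, and MT-ND3 without doxycycline 3 and with the replicate block. Libraries were made from RNA selected with oligo(dT) beads, so the level of a mitochondrial mRNA also depends on its poly(A) tail, and the part of this in the result was not tested.

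**Figure D5:**
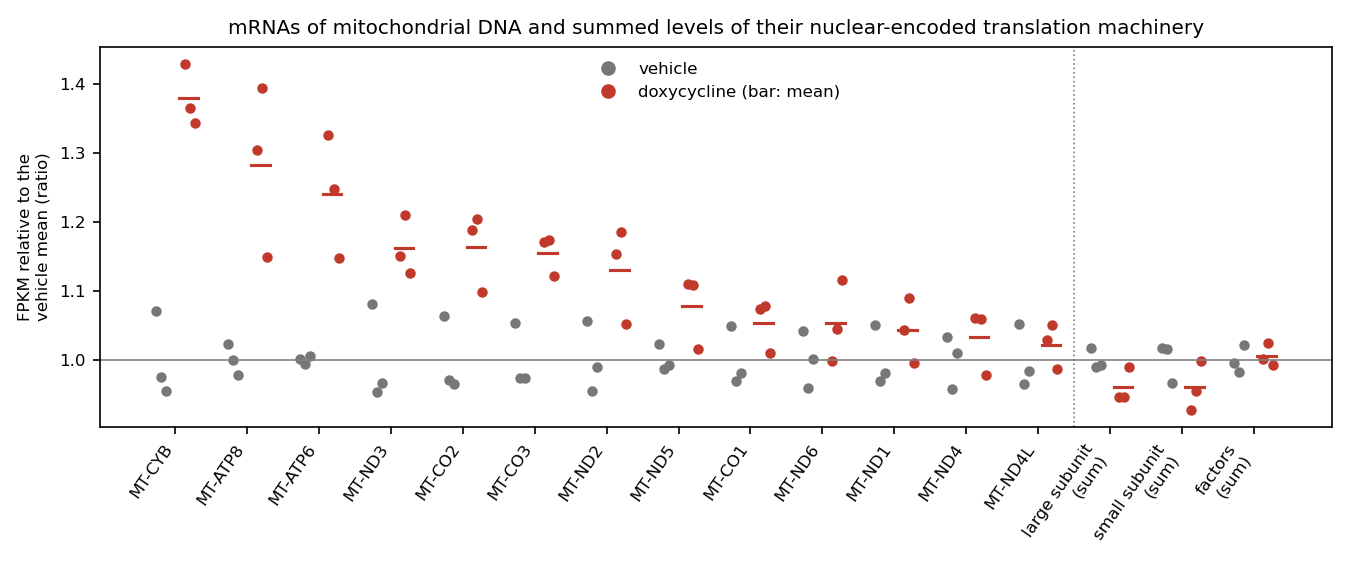
FPKM in each library divided by the vehicle mean (y axis, ratio, not starting at 0). Left of the dotted line are the 13 protein-coding genes of mitochondrial DNA. Right of it is the summed FPKM of the large subunit, small subunit and translation factors. Grey points are vehicle libraries, red points doxycycline libraries and red bars their means: MT-CYB is highest at 1.38 on this scale, which is before any quantile normalization, and the summed ribosomal proteins lie near 0.96.

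Other mitochondrial lists had shares of called genes below the 28.8% of all genes. A list of 15 genes held chaperones and proteases of the organelle and ATF5, a transcription factor of the mitochondrial stress response. Of the 15, 1 rose and 2 fell (20% called, median -0.03). The gene that rose was ATF5, from 4.95 ± 0.550 to 6.20 ± 0.302 FPKM, and no chaperone or protease of the list rose by limma. The chaperonins HSPD1 and HSPE1 fell from 384 ± 11.5 to 341 ± 7.43 and from 122 ± 2.83 to 111 ± 1.67 FPKM. With quantile normalization HSPD1 was called in the other direction, with a log2 fold change of 0.10. ATF5 lost its call with quantile normalization, with the replicate block and without any 1 library other than vehicle 1, and HSPE1 without vehicle 3, doxycycline 1 or doxycycline 2. Of 26 protein import genes 2 rose (TIMM22 and TOMM20) and 2 fell (TOMM70 and TOMM7), 15.4% in all, with a median of -0.05. TOMM20 and TOMM7 lost their calls without the variance trend, with the replicate block and without any 1 library other than doxycycline 2.

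Of 12 tested regulators of mitochondrial biogenesis 2 rose and 1 fell (25% called), with a median of 0.04. TFE3, a transcription factor of lysosomal and mitochondrial genes, was at 8.09, 7.81 and 7.43 FPKM with vehicle and at 13.3, 13.6 and 13.5 FPKM with doxycycline (1.74-fold, adjusted p = 0.000105, limma). ATF4, the main transcription factor of the integrated stress response, rose from 164 ± 2.89 to 180 ± 3.48 FPKM. PPARGC1A, a coactivator of mitochondrial genes, fell from 5.99 ± 0.431 to 4.98 ± 0.227 FPKM, and lost its call with the replicate block and without any 1 of the 6 libraries.

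The cytosolic ribosome gave larger shares than the mitochondrial one. Of 79 cytosolic ribosomal proteins 27 fell (34.2%) and none rose by limma, beside 13.6% and 15.2% of all genes. With quantile normalization, though, 20 were lower and 3 higher. On the deposited scale 45 had an unadjusted p below 0.05, 75 had a negative log2 fold change and the median was -0.11, beside 10 lower and 2 higher of the 78 MRPL and MRPS genes with a median of -0.05. The cytosolic genes had a median level of 98.1 FPKM and a median standard error of 0.0411. For the MRPL and MRPS genes these were 16.2 FPKM and 0.0545, so smaller changes could be called among the cytosolic genes. The difference between the 2 kinds of ribosome was not tested.

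Reads may be shared with other loci for some members. In GENCODE 29, 37 of the 88 genes have named pseudogenes, 7 of them called (MRPL32, MRPL48, MRPL50, MRPS10, MRPS18A, MRPS18B and TFAM), and how the authors' counting split reads between copies is not given in the sources used here. Of the members, 8 overlapped another listed gene on the same strand, none of them called, and 26 overlapped one on the opposite strand.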

How the data were processed

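The deposited values are FPKM computed by the authors, 1 column for each of the 6 libraries. The submitters' processing notes name FastQC, cutadapt, HISAT2, StringTie and GRCh37; versions, options and annotation release are not given in the sources used here. Per the labels' protocols, RNA was selected with oligo(dT) and libraries were strand-specific. FPKM carries no depth, so no counting intervals are given.

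Of 11461 entries, 10 shared 5 symbols, and the entry with the highest mean stood for its symbol. A minimum mean FPKM of 1 left 10469 of 11456 genes (987 were not tested). They were tested on log2(FPKM + 1) with limma (version 3.58.1, R 4.3.3), with group as the only term, a variance trend and Benjamini-Hochberg adjustment over all genes tested, two-sided. "Called", "rose" and "fell" stand for an adjusted p below 0.05. Folds are ratios of mean FPKM. Log2 fold changes understate changes of weak genes.

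The members and lists were chosen with earlier results of these data known. Genes named are the factors, TFAM, LRPPRC, the called members with the 10 largest changes each way, the 5 highest and 3 lowest by level, the MRPS18 family, MRPS30, MRPS36 and up to 4 called genes per list. Others are identified where named. Some of the list genes that this rule names are given in counts only or not reported here. A sixth ribosomal protein outside the naming rule, ICT1, is listed as MRPL58 and is a member. The 16 alternatives changed the pseudocount, filter, scaling, moderation, design, entries and libraries, and a threshold of 0.01 was also tried. On simulated data of 10469 genes for this comparison, 22.5% of genes changed by 0.25 on the log2 scale were recovered. So were 65% of those changed by 0.5 and 87.5% of those changed by 1, and 6.25% of 112 calls were false. The simulation changed fewer genes than were called in the data, which makes the adjustment of p-values stricter. These shares therefore do not carry over to the data. Promoters were from RefSeq (GRCh38.p14), start codons and pseudogene names from GENCODE 29, and other coordinates from the deposited table (GRCh37). Tables and figures were made with python 3.11.15, numpy 2.4.6, pandas 2.3.3, scipy 1.17.1 and matplotlib 3.10.9.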

Additional observations from a re-analysis of the deposited data

How the results depend on the processing

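Of the 15 called members, 8 kept their call in every alternative fit in which they were tested, and 7 lost it in at least 1. Genes higher with doxycycline numbered 3 in each alternative except when single libraries were left out, where they numbered 3 to 5 (5 without vehicle 1). The number of lower genes, 12, was 7 without the variance trend, 5 at an adjusted p below 0.01 and 6 to 9 when single libraries were left out (6 without vehicle 1, without vehicle 3 and without doxycycline 1). Over all genes 3012 were called, 1636 at an adjusted p below 0.01 and 2309 to 2376 with 1 library left out. In each of the 16 alternative fits the percentage of members called was below that of all genes. The ratio of the summed levels of the members, doxycycline over vehicle, was 0.949 to 0.971 when single libraries were left out. With the replicate number as a block, 12 members were called (3 higher, 9 lower), 11 of them among the 15, and 2343 of all genes. Deviations of same-numbered libraries from their group means correlated at 0.015, -0.032 and 0.092, so the numbers were not taken to pair the libraries. Among genes that were not called, leaving out single libraries turned the sign of the log2 fold change of MRPL42 (-0.24 to 0.00998), MRPS18C (-0.015 to 0.026), MRPS36 (-0.079 to 0.035), MRPS35 (-0.32 to 0.16) and MRPL36 (-0.33 to 0.16). Quantile normalization turned that of MT-ND3 (-0.052), MT-CO3 (-0.015) and HSPD1 (0.10, adjusted p = 4.91e-04, limma), and the cause was not tested. This scaling sets values by rank, so it cannot check a shift shared by the highest genes. The depth of the libraries is unknown, so nothing can be said of counting error, and 3 libraries a group limit the precision. In simulated data of the same size most changes of 0.25 on the log2 scale were missed. Fewer genes were changed there than were called in the data, so that share does not carry over to them.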
